A study of Rattus norvegicus with 26 samples.

Results

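The comparison set the cultures of macroglia, astrocytes and oligodendrocytes, against the cultures of neurons and of microglia, with 8 arrays on each side of 26 in all. All 16 were primary cultures grown from the cerebral cortex of newborn (P1) rats, 4 of each kind, and no strain, genotype or treatment was given for them. A gene was counted as shared when the mean of each of the 2 cultures on one side lay at least 1 log2 unit above the mean of each of the 2 on the other. The difference between the lower of the 2 high means and the higher of the 2 low means is called the gap here, and a gap of 1 is a 2-fold difference. By this rule 109 of 14217 measured genes (0.767%) were shared by the macroglial cultures and 35 (0.246%) by the neuronal and microglial cultures.

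Astrocytes and oligodendrocytes arise from the neuroepithelium, as neurons do, whereas microglia are macrophages that enter the brain from the yolk sac early in development. Neurons and microglia therefore have no common lineage within the brain, and astrocytes and oligodendrocytes keep several genes of the radial glia they come from. Astrocytes take up transmitters and ions and supply neurons with metabolites, oligodendrocytes form myelin, and microglia survey and clear tissue.

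The study hybridised RNA of the 16 cultures and of 10 RNA mixtures to Affymetrix rat arrays, with values on a log2 scale between 2.57 and 14.36. The median of an array lay between 5.25 and 5.31 in the cultures, so a mean below 5.25 was below the middle of every array. Arrays of a culture correlated with r between 0.974 and 0.995 for neurons, 0.942 and 0.995 for astrocytes, 0.967 and 0.985 for oligodendrocytes and 0.977 and 0.989 for microglia. The title and cell type label of the fourth microglial array named a microglial culture while its description read as a mixture, and it was kept with the microglia. The cultures carried their labels' markers, though not alone. The mean level of 16 neuronal markers was 10.41 to 10.74 in the neuronal arrays, against 5.71 to 5.75 in astrocytes, 6.45 to 7.005 in oligodendrocytes and 5.51 to 6.21 in microglia. The 15 astrocyte markers lay at 9.26 to 10.79 in astrocytes, 7.59 to 9.45 in neurons, 7.36 to 8.93 in oligodendrocytes and 6.84 to 7.09 in microglia. The 13 oligodendrocyte markers lay at 7.98 to 9.91 in oligodendrocytes, 6.33 to 7.62 in microglia, 4.85 to 5.94 in astrocytes and 4.64 to 4.79 in neurons. The 16 microglial markers lay at 10.48 to 11.19 in microglia, 8.03 to 9.11 in oligodendrocytes, 4.60 to 6.05 in astrocytes and 4.53 to 4.75 in neurons. The neuronal arrays thus held transcripts of astrocyte markers, and the oligodendrocyte and microglial arrays held transcripts of each other's markers. The 12 fibroblast markers were highest in astrocytes, at 5.98 to 7.71, against 4.36 to 5.34 in oligodendrocytes, 4.49 to 4.88 in neurons and 4.22 to 4.67 in microglia, and of 9 endothelial markers 8 were below every array's median in each culture. Whether markers of another cell type came from admixed cells or from the labelled cells was not tested. Their part in the genes below was not tested either. In bulk RNA fewer cells of a type and less RNA per cell cannot be told apart.

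The gap rule was much narrower than the mean contrast, the average of the astrocyte and oligodendrocyte means minus the average of the neuronal and microglial means. By limma, 1798 probe sets were higher (5.79%) and 1609 lower (5.18%) in macroglia by this contrast, at an adjusted p under 0.05 and a log2 difference of at least 1. At 1 probe set per gene these were 1177 genes (8.28%) and 854 genes (6.01%). Of the 2031 genes so called, 144 were shared by both cultures of a side and 1887 were not, at least 1 of the 4 differences between opposed cultures being under 2-fold or of the other sign. The shared genes made up 9.26% of the higher and 4.10% of the lower calls. When the arrays were fitted as 2 groups of 8, which puts the differences between cultures of a side into the error, 619 probe sets were called higher and 318 lower. The other ways of pairing the 4 cultures gave more shared genes by the same rule. Neurons with oligodendrocytes shared 230 against 127 for astrocytes with microglia, and neurons with astrocytes shared 363 against 417 for oligodendrocytes with microglia. These counts use the same 16 arrays and were not tested against each other.

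**Figure D1:**
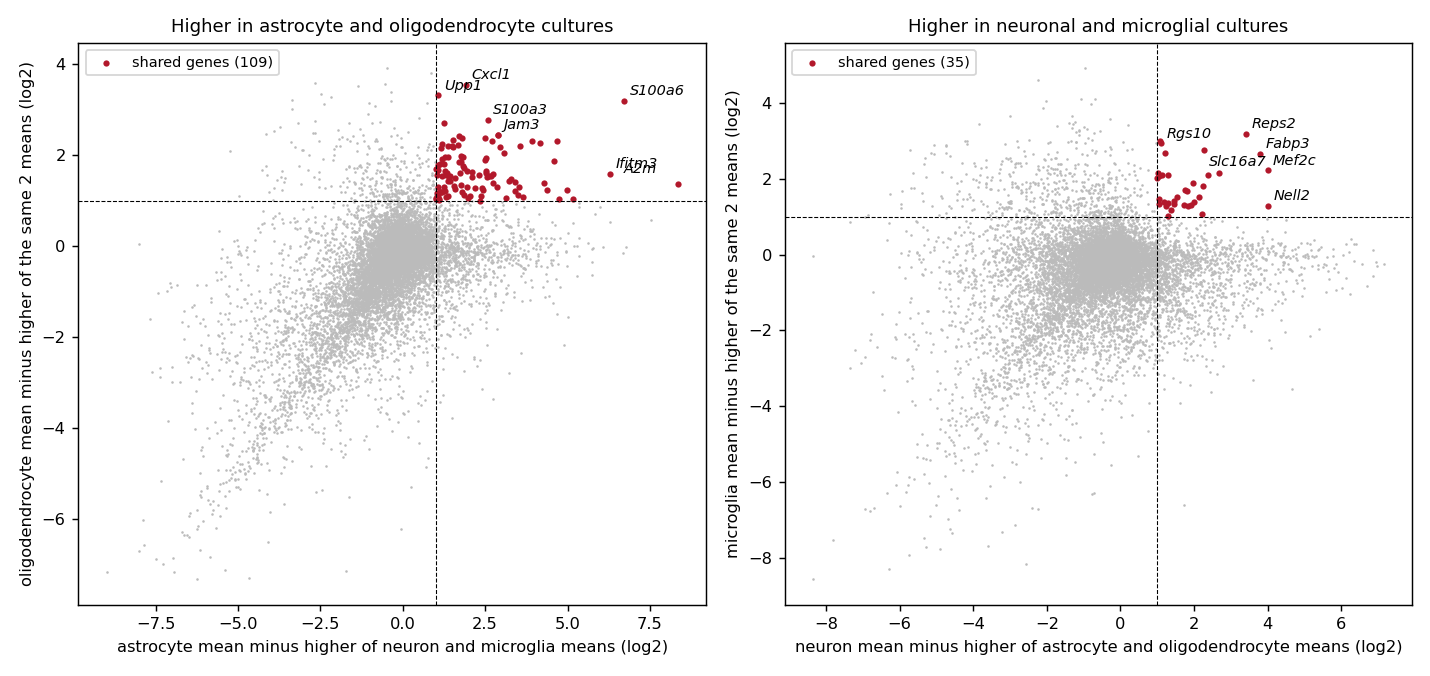
Every measured gene, with the distance of each of the 2 means of a side from the higher mean of the other side on the axes (log2 units). The 109 genes shared by macroglia and the 35 shared by neurons with microglia lie beyond both dashed lines at 1, as no other gene does.

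Among the 109 macroglial genes the gap had a median of 1.35 and a maximum of 3.20, and 12 genes had a gap of at least 2. Their mean contrast had a median of 2.18 and ran from 1.16 to 5.06. The 8 high arrays lay wholly above the 8 low arrays for 62 of them, and for 199 of all genes (1.4%), but the gap rule used these same arrays, so that nothing is read from the 2 counts. The oligodendrocyte mean was the lower of the high pair for 66 and the astrocyte mean for 43, and microglia were the nearer of the low pair for 79 and neurons for 30. For 20 genes both low means were below every array's median, where background compresses differences. The rule also chose these genes for a large gap. For Myo1d and Pard3, both of this group, the highest gap of another probe set was 0.077 and 0.28. The gaps of this group are therefore uncertain in size and are not read as lower bounds.

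The largest macroglial gap belonged to S100a6, a calcium-binding protein of the EF-hand S100 family. S100a6 measured 11.34, 11.56, 11.59 and 11.44 in the 4 astrocyte arrays and 8.16, 8.50, 6.85 and 8.32 in the 4 oligodendrocyte arrays. It measured 4.35, 4.49, 4.55 and 4.83 in neurons and 4.64, 4.61, 4.82 and 4.97 in microglia. All 8 neuronal and microglial arrays lay below the lowest oligodendrocyte array, and the gap of 3.20 is a difference of at least 9.16-fold. S100a3, its neighbour on chromosome 2 and a member of the same family, measured 8.39, 7.98, 7.81 and 6.61 in astrocytes, 8.14, 8.67, 6.68 and 8.08 in oligodendrocytes, 4.53, 4.86, 5.42 and 4.69 in neurons and 4.83, 4.95, 5.44 and 5.25 in microglia. The 2 macroglial cultures covered almost the same range for S100a3 and did not overlap with the other 8 arrays. S100a4 lay between them on the chromosome, 1.249 kb from S100a3 and 7.351 kb from S100a6. It averaged 12.47 ± 0.23 (SD, n = 4, as for all means below) in astrocytes, 10.91 ± 0.14 in oligodendrocytes, 9.61 ± 0.25 in microglia and 5.41 ± 0.32 in neurons, so that microglia stood nearer to macroglia than to neurons.

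The promoters of the genes with the largest gaps are shown because the results below turn on these genes, and because S100a6 and S100a3 lie near each other on the chromosome and were high in the same cultures. The sequences run 5′ to 3′ on the gene's strand from 250 bases before to 50 bases after the annotated start, from RefSeq on the GRCr8 assembly. S100a6 lies at chr2:178398287-178398586 on the plus strand, S100a3 at chr2:178384263-178384562 on the plus strand, Reps2 at chrX:35681013-35681312 on the plus strand and Fabp3 at chr5:147935875-147936174 on the plus strand. Capitals mark matches on either strand to 5 motifs. SOX factors bind ACAAAG and TEAD factors bind GGAATG. Factors of the ETS family, which includes the myeloid factor PU.1, bind AGGAAG. The dimers of Fos and Jun bind TGANTCA. The core promoter element named for its letters is TATAAA.
S100a6: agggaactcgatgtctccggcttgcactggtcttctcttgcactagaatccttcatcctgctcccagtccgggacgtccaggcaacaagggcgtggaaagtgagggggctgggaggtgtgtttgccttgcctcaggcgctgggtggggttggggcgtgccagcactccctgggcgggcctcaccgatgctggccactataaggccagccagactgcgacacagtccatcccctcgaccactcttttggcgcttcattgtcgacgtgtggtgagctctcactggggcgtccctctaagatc
S100a3: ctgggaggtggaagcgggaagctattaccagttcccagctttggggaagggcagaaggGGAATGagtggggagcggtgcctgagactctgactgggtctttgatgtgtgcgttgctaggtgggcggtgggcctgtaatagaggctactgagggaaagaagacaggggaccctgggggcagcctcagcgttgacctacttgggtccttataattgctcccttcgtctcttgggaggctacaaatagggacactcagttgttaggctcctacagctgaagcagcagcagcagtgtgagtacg
Reps2: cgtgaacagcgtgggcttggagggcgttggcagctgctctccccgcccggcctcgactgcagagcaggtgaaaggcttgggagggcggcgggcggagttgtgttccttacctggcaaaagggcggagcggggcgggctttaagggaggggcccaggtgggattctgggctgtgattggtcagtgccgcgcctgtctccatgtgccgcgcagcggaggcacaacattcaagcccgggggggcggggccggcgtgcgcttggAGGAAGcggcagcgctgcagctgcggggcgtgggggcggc
Fabp3: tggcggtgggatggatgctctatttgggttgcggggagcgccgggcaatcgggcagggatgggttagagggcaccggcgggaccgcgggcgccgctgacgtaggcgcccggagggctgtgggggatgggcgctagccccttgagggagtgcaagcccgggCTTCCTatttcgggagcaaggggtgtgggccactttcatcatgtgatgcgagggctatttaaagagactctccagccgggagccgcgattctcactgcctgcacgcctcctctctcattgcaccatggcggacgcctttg

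S100a6 held none of the motifs, S100a3 held GGAATG, and Reps2 and Fabp3 each held AGGAAG, in Fabp3 on the opposite strand as CTTCCT. Ppp1r14a, the other macroglial gene of the first 3 with an entry, also held AGGAAG, and Slc16a7 on the neuronal and microglial side held none of them. RefSeq gave a promoter for 91 macroglial genes, 24 neuronal and microglial genes, 11700 measured genes and 27457 genes in all. ACAAAG was present in 14.3% of the macroglial promoters, 8.33% of the neuronal and microglial ones and 14.1% of those of measured genes. GGAATG was present in 16.5%, 0% and 11.7%, and AGGAAG in 36.3%, 33.3% and 34.2%, in the same order. TGANTCA was present in 9.89%, 4.17% and 5.43%, and TATAAA in 13.2%, 0% and 8.45%. Over all 27457 promoters the shares were 18.3% for ACAAAG, 13.9% for GGAATG, 34.3% for AGGAAG, 7.33% for TGANTCA and 14.3% for TATAAA. The motifs AGGAAG and GGAATG share the letters GGAA, and a match says only that the letters stand in this window.

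Several leading macroglial genes act at the cell surface and its cytoskeleton. Jam3, an immunoglobulin-type adhesion protein of cell junctions, measured 9.45, 9.06, 9.13 and 9.21 in astrocytes, 9.55, 9.58, 7.32 and 8.59 in oligodendrocytes, 6.24, 6.12, 6.54 and 6.34 in neurons and 6.83, 6.57, 4.79 and 5.40 in microglia. Its related gene Jam2 averaged 10.20 ± 0.52 and 8.84 ± 0.35 in astrocytes and oligodendrocytes against 7.45 ± 0.60 and 7.15 ± 0.40 in neurons and microglia. Both are shared, and the other family member measured was not called. Myo1d, a class I myosin, measured 6.80, 6.79, 7.03 and 7.57 in astrocytes and 8.78, 7.84, 4.29 and 6.76 in oligodendrocytes, 4.18, 3.76, 3.76 and 3.76 in neurons and 4.78, 5.05, 3.75 and 4.63 in microglia. The third oligodendrocyte array of Myo1d lay below the first microglial array, so the sides overlapped despite a gap of 2.37. The other probe set of Myo1d had a gap of 0.077, under the minimum. Tmem98, a membrane protein 30.357 kb from Myo1d on chromosome 10, measured 9.02, 8.76, 8.87 and 9.02 in astrocytes, 9.91, 9.11, 6.38 and 8.76 in oligodendrocytes, 3.94, 5.10, 5.63 and 5.49 in neurons and 6.59, 6.78, 5.27 and 6.25 in microglia. For Tmem98 too the third oligodendrocyte array was the low one, and it fell inside the microglial range. Ppp1r14a, an inhibitor of myosin phosphatase, ranged over 5.85 to 7.75 in astrocytes and 4.21 to 8.30 in oligodendrocytes, against 3.74 to 4.12 in neurons and 3.68 to 4.10 in microglia. Igsf11, an immunoglobulin-type adhesion protein, ranged over 8.80 to 10.91 and 8.25 to 10.21 in the macroglia, 7.36 to 7.91 in neurons and 6.08 to 8.60 in microglia, and its sides overlapped.

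The third oligodendrocyte array gave the lowest oligodendrocyte value for 56 of the 109 genes, and it was also the lowest in the oligodendrocyte marker list, at 7.98 against 8.92 to 9.91 in the others. The first microglial array gave the highest microglial value for 67 and the third the lowest for 65, and the oligodendrocyte list stood at 7.62 in the first and at 6.33 in the third. The fourth astrocyte array was the lowest astrocyte array for 54 genes and in the astrocyte marker list, at 9.26. Among neurons the first array gave the lowest value for 58 genes and the third the highest for 51. The astrocyte list stood at 7.59 in the first neuronal array and at 9.45 in the third. Of the 35 neuronal and microglial genes, 20 had their lowest oligodendrocyte value in the first oligodendrocyte array. The microglial list stood at 8.03 in that array, against 9.07 to 9.11 in the other oligodendrocyte arrays. With the third oligodendrocyte array left out 125 genes were shared by macroglia, and with the third microglial array left out 95. The part of these markers in the differences between arrays was not tested.

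Signalling genes formed a second group. Fgfr2 and Fgfr3 are receptors of fibroblast growth factors. Fgfr2 measured 10.10, 9.95, 9.83 and 9.54 in astrocytes, 9.90, 9.68, 7.47 and 8.26 in oligodendrocytes, 6.64, 6.78, 6.97 and 6.75 in neurons and 7.12, 6.90, 4.76 and 6.55 in microglia, and the sides did not overlap. The gap of Fgfr2 fell from 2.04 to 0.48 when the median of all its probe sets was used. Fgfr3 averaged 10.71 ± 0.53 in astrocytes and 7.02 ± 0.34 in oligodendrocytes, against 5.98 ± 0.86 in neurons and 5.39 ± 0.61 in microglia. Fgfr1 was called higher by the mean contrast without being shared, with microglia at 9.54 ± 0.17 above oligodendrocytes at 9.19 ± 0.47. Rassf4, a protein with a Ras-association domain, measured 10.52, 10.39, 10.53 and 10.99 in astrocytes, 9.43, 10.45, 10.06 and 9.43 in oligodendrocytes, 4.71, 4.66, 5.003 and 5.43 in neurons and 7.59, 7.43, 6.58 and 9.06 in microglia. Microglia thus held an intermediate level of Rassf4, below every macroglial array and above every neuronal one. Amotl2, a scaffold of the Hippo pathway that binds the coactivator YAP, ranged over 9.12 to 10.29 in astrocytes, 8.61 to 9.15 in oligodendrocytes, 6.64 to 7.45 in neurons and 5.25 to 6.97 in microglia. Tead1, a DNA-binding partner of YAP, averaged 10.61 ± 0.38, 8.37 ± 0.31, 6.80 ± 0.59 and 7.08 ± 0.59 in the same order. Bmpr1a, a type I receptor of bone morphogenetic proteins, averaged 8.88 ± 0.58, 7.60 ± 0.28, 5.93 ± 0.67 and 6.49 ± 0.34. The other probe sets of Fgfr3 and Tead1 had gaps of 0.33 and 0.28, under the minimum.

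Genes of metabolism and of immune signalling made up another group. Ass1, argininosuccinate synthase of the arginine pathway, ranged over 7.29 to 9.22 in astrocytes and 5.88 to 7.97 in oligodendrocytes, against 4.37 to 4.67 in neurons and 4.08 to 4.59 in microglia. Phgdh and Psat1 catalyse the first steps of serine synthesis. Phgdh averaged 9.95 ± 0.40 in astrocytes, 9.64 ± 0.61 in oligodendrocytes, 7.35 ± 1.08 in neurons and 7.99 ± 0.51 in microglia, and Psat1 10.45 ± 0.67, 11.25 ± 0.17, 8.30 ± 0.58 and 8.92 ± 0.55. The arrays of the sides did not overlap for either. Gbp2, an interferon-induced GTPase, measured 10.13, 11.05, 11.10 and 8.91 in astrocytes, 8.84, 8.03, 8.23 and 8.52 in oligodendrocytes, 4.03, 4.19, 4.15 and 4.68 in neurons and 5.93, 6.34, 4.79 and 7.51 in microglia. Every macroglial array of Gbp2 lay above every other array, with the fourth microglial array the nearest. Cxcl1, a chemokine that attracts neutrophils, measured 6.58, 9.18, 9.30 and 8.84 in astrocytes, 10.23, 8.79, 10.69 and 10.69 in oligodendrocytes, 4.86, 4.32, 5.82 and 6.31 in neurons and 7.38, 6.05, 5.78 and 7.01 in microglia. The first astrocyte array fell within the microglial range of Cxcl1. Ccl2 and Ccl7, chemokines that attract monocytes and lie 9.22 kb apart on chromosome 10, were intermediate in microglia. Ccl2 averaged 10.59 ± 0.93 in astrocytes, 11.14 ± 0.60 in oligodendrocytes, 8.92 ± 0.88 in microglia and 5.03 ± 0.59 in neurons. Tmbim1, Plekhb1, which has a pleckstrin homology domain, and the genes above complete the 15 largest gaps. Tmbim1 ranged over 10.14 to 11.02 in astrocytes, 7.34 to 8.85 in oligodendrocytes, 5.25 to 6.61 in neurons and 5.18 to 6.55 in microglia, and Plekhb1 over 7.89 to 10.59, 7.64 to 9.12, 5.09 to 7.24 and 5.49 to 6.81.

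**Figure D2:**
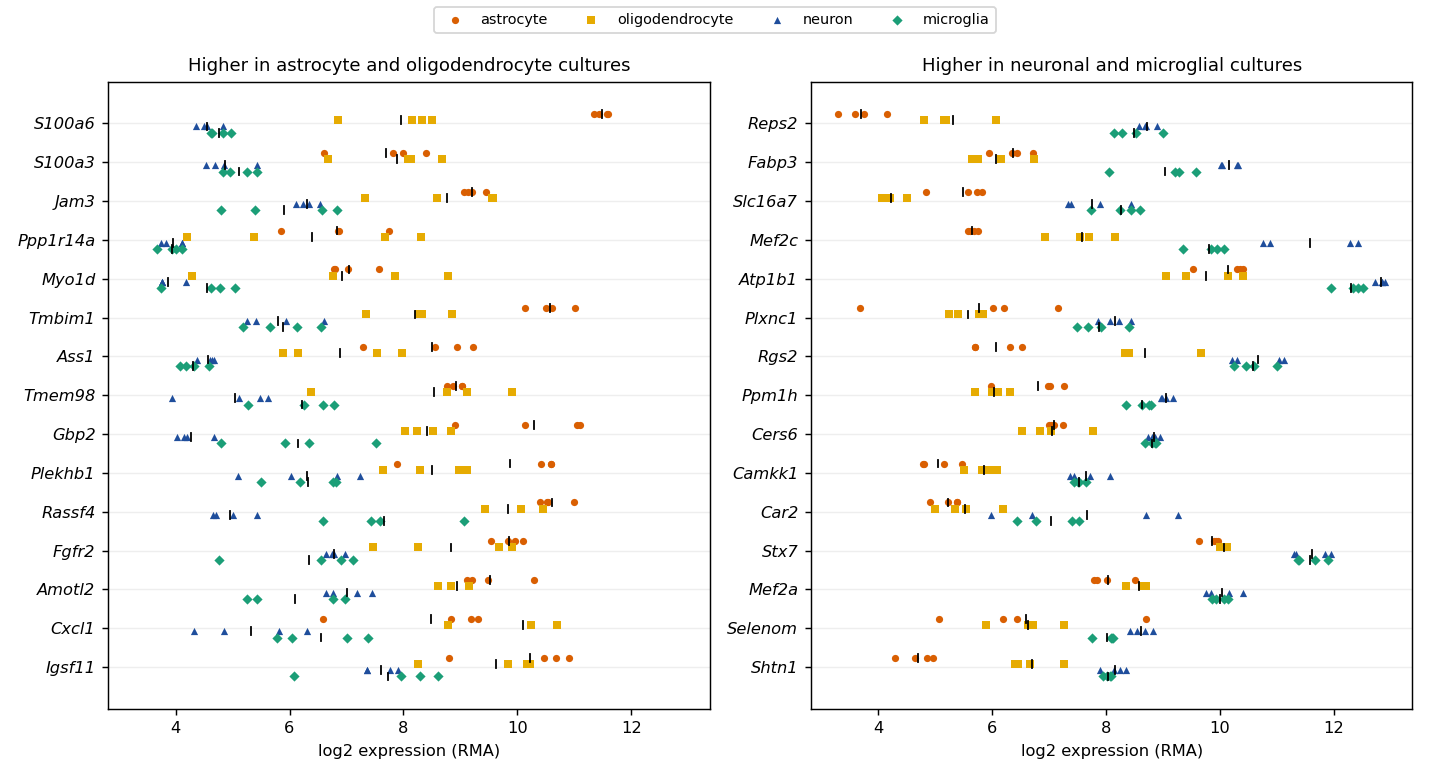
The 15 genes with the largest gap on each side, with 1 point per array, a black tick at each culture mean and log2 expression on the horizontal axis. For S100a6 every astrocyte and oligodendrocyte array lies above the neuronal and microglial arrays, and for Reps2 the order of the sides is the opposite.

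The 35 genes shared by neurons and microglia had a median gap of 1.29 and a maximum of 3.18, and 6 had a gap of at least 2. Their mean contrast had a median of -1.98, with sizes between 1.27 and 4.10. The sides did not overlap for 28 of them, and for 146 of all genes (1.03%) in this direction, counts that again rest on the arrays the rule used. Oligodendrocytes were the nearer of the low pair for 23 and astrocytes for 12, and microglia were the lower of the high pair for 21 and neurons for 14. Only Filip1 had both low means below every array's median, and its gap became -0.017 with the median of all its probe sets.

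Reps2, an EH-domain protein linked to endocytosis, led this side. Reps2 measured 8.90, 8.68, 8.57 and 8.70 in neurons and 8.15, 8.27, 8.53 and 9.004 in microglia. It measured 4.16, 3.59, 3.30 and 3.75 in astrocytes and 4.81, 5.18, 6.06 and 5.16 in oligodendrocytes. The sides were far apart in every array, with a gap of 3.18 or 9.09-fold. Fabp3, a cytoplasmic carrier of fatty acids, measured 10.02, 10.03, 10.32 and 10.29 in neurons, 9.27, 9.21, 9.58 and 8.04 in microglia, 6.44, 5.94, 6.35 and 6.72 in astrocytes and 6.16, 6.73, 5.75 and 5.65 in oligodendrocytes. Neither side's arrays overlapped with the other's, and neurons were above microglia. Slc16a7, the monocarboxylate transporter MCT2, measured 7.90, 8.43, 7.33 and 7.38 in neurons, 7.74, 8.60, 8.25 and 8.43 in microglia, 5.58, 5.81, 5.74 and 4.84 in astrocytes and 4.07, 4.20, 4.15 and 4.50 in oligodendrocytes. The neuronal and microglial values of Slc16a7 interleaved and stood above all macroglial ones.

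The transcription factors Mef2c and Mef2a, known in neurons for activity-dependent transcription and in microglia as part of the myeloid programme, both belonged to this side. Mef2c measured 12.28, 12.42, 10.88 and 10.75 in neurons, 9.36, 9.84, 10.06 and 9.95 in microglia, 5.57, 5.75, 5.69 and 5.61 in astrocytes and 7.55, 8.16, 7.71 and 6.92 in oligodendrocytes. Its 4 cultures fell in the order neurons, microglia, oligodendrocytes and astrocytes with no overlap between neighbours. Mef2a ranged over 9.76 to 10.40 in neurons, 9.86 to 10.14 in microglia, 7.79 to 8.51 in astrocytes and 8.35 to 8.70 in oligodendrocytes. Mef2b and Mef2d were not called by the mean contrast.

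Membrane transport and G protein signalling gave several members. Atp1b1, the beta-1 subunit of the sodium-potassium pump, measured 12.84, 12.73, 12.84 and 12.90 in neurons, 12.33, 12.52, 12.43 and 11.94 in microglia, 10.40, 10.30, 10.35 and 9.53 in astrocytes and 10.15, 10.40, 9.05 and 9.41 in oligodendrocytes. It was called alone among 5 measured subunits of this pump. Atp2b1, a calcium pump of the plasma membrane, averaged 10.94 ± 0.17, 10.50 ± 0.13, 8.58 ± 0.17 and 9.21 ± 0.18 in that order, whereas Atp2b2 was high in neurons, at 9.60 ± 0.15, and at 4.47 ± 0.32 in microglia. Atp6v1b2, a subunit of the proton pump of lysosomes and vesicles, averaged 11.06 ± 0.057, 11.48 ± 0.074, 8.77 ± 0.16 and 10.001 ± 0.25. Rgs2, a regulator that ends G protein signals, measured 10.30, 10.22, 11.04 and 11.12 in neurons, 10.24, 10.46, 10.60 and 10.9998 in microglia, 6.32, 5.70, 5.70 and 6.53 in astrocytes and 8.35, 9.67, 8.41 and 8.33 in oligodendrocytes. Oligodendrocytes were intermediate for Rgs2, and no array of one side reached the other. Rgs10 averaged 9.65 ± 0.10 in neurons, 11.50 ± 0.21 in microglia, 6.65 ± 0.81 in astrocytes and 8.55 ± 0.38 in oligodendrocytes.

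Among the receptors, Plxnc1, which binds semaphorin 7A, measured 8.45, 8.22, 7.86 and 8.07 in neurons, 7.68, 7.92, 8.40 and 7.49 in microglia, 7.16, 6.20, 6.02 and 3.68 in astrocytes and 5.25, 5.41, 5.78 and 5.83 in oligodendrocytes. The astrocyte arrays of Plxnc1 spread over more than 3 log2 units, and the highest of them was still below every neuronal and microglial array. Stx7, a syntaxin of endosome fusion, ranged over 11.29 to 11.95 in neurons, 11.36 to 11.89 in microglia, 9.63 to 9.97 in astrocytes and 9.997 to 10.13 in oligodendrocytes. Ppm1h, a protein phosphatase, ranged over 8.96 to 9.18, 8.35 to 8.80, 5.98 to 7.26 and 5.70 to 6.31 in the same order, and Cers6, a ceramide synthase, over 8.74 to 8.95, 8.69 to 8.87, 6.99 to 7.24 and 6.53 to 7.77. Camkk1, a kinase that activates calmodulin-dependent kinases, ranged over 7.36 to 8.07, 7.44 to 7.65, 4.79 to 5.48 and 5.51 to 6.09. The sides of these 4 genes did not overlap. Car2, a carbonic anhydrase known in the brain from oligodendrocytes, ranged over 5.97 to 9.26 in neurons and 6.44 to 7.53 in microglia, against 4.996 to 6.19 in oligodendrocytes and 4.90 to 5.39 in astrocytes. The sides of Car2 overlapped, as did those of Selenom, a selenoprotein of the endoplasmic reticulum, at 8.41 to 8.82 in neurons, 7.74 to 8.13 in microglia, 5.06 to 8.71 in astrocytes and 5.89 to 7.27 in oligodendrocytes. Shtn1, a protein of axon outgrowth, ranged over 7.89 to 8.35 in neurons, 7.94 to 8.09 in microglia, 4.29 to 4.97 in astrocytes and 6.40 to 7.26 in oligodendrocytes. The other probe sets of Plxnc1 and Car2 had gaps of 0.60 and 0.76, under the minimum. The 2 other probe sets of Ppm1h had gaps of -0.31 and 1.44, so that 1 of them met it.

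The remaining macroglial genes were Heg1, Ccl7, Rig1, Septin4, Fermt2, Sytl2, Tnfaip6, Cyp1b1, Isg15, Cxcl6, Ptpn14, Cdc42ep1, Adgrg1, Stard13, Ifitm3, Ddr1, Dclk1, Vangl1, Plxnb1, Col11a1, Ifitm10, Lamc1, Cxcl10, Myo6, Gadd45a, Gpr37l1, Pvr, Chdh, Gdpd2, Zfand4, Vamp5, Slc12a4, Igfbp7, A2m, Slc22a23, Fabp7, Sox2, Sall1, Sox21, Ptpdc1, Mid1ip1, C1ql1, Hepacam, Wwc2, Wipi1, Ifi44l, Abhd3, Olfml2a, Tnn, Fos, Ifi27l2b, Ppic, Lcat, Mtmr10, P3h4, Efs, Ephb1, Tmem123, Irf7, Papss2, Tmem108, Phldb1, Epdr1, Ntrk2, Serpina3n, Pard3, Myh14, Upp1, Yes1, Ccdc107, Fkbp9, Rsad2, Tns2, Nxn, Snx33, Otud7b, Cd9, Pvt1, Nupr1, Adgrg6, Shb, Rdx, C19h1orf198, Slc5a3, Tnfrsf19 and Plpp3. The remaining neuronal and microglial genes were Plcl2, Dtx4, Dyrk2, Nell2, Hpcal1, Nceh1, Filip1, Plxna1, Raph1, Pitpnc1, Ncoa7, Rnf144b, Mfhas1, B4galt6, Rhov, Cdc42ep3 and Fam20c. Just inside the minimum gap lay Slc5a3, Tnfrsf19 and Plpp3 on the macroglial side, with gaps of 1.003, 1.001 and 1.000, and Rhov, Cdc42ep3 and Fam20c on the other, with 1.030, 1.020 and 1.007. Just outside lay Ptgr2, Arhgap28 and Ltbp4 at 0.998, 0.994 and 0.988, and Oxr1, Sh2b2 and Chd3 at 0.9999, 0.969 and 0.968. The only other probe set of Slc5a3 had a gap of -0.10 and did not point the same way.

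The rule leaves the difference within a side free, and limma tested the astrocyte against the oligodendrocyte mean and the neuronal against the microglial mean. Over all genes 1629 were higher in astrocytes (11.5%) and 1307 in oligodendrocytes (9.19%), and 2286 were higher in neurons (16.1%) and 2315 in microglia (16.3%). Of the 109 macroglial genes 29 were higher in astrocytes (26.6%) and 1 in oligodendrocytes (0.917%), while 79 were not called. Among them 2 were higher in neurons (1.83%) and 24 in microglia (22.0%), and 83 were not called. The largest astrocyte excess was that of A2m, a broad protease inhibitor, which averaged 13.03 ± 0.67 in astrocytes and 6.06 ± 1.17 in oligodendrocytes, a log2 difference of 6.97 ± 0.46 (SE, limma adjusted p = 2.22e-08). Ifitm3, an interferon-induced membrane protein, differed by 4.71 ± 0.60 (limma adjusted p = 1.83e-05), Nupr1, a stress-induced nuclear protein, by 4.13 ± 0.60 (limma adjusted p = 5.71e-05) and Tnn, tenascin N of the matrix, by 3.75 ± 0.69 (limma adjusted p = 0.000504). S100a6 and Fgfr3 were also higher in astrocytes, by 3.53 ± 0.26 (limma adjusted p = 6.83e-08) and 3.69 ± 0.39 (limma adjusted p = 2.89e-06). Upp1, uridine phosphorylase, was the one higher in oligodendrocytes, with an astrocyte minus oligodendrocyte difference of -2.23 ± 0.36 (limma adjusted p = 0.000148).

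On the low side of the macroglial genes the microglia stood above neurons for Cd9, a tetraspanin, with a neuron minus microglia difference of -4.54 ± 0.41 (SE, limma adjusted p = 1.41e-07). Cd9 averaged 10.52 ± 0.20 in microglia and 5.97 ± 0.77 in neurons, against 11.57 ± 0.96 and 11.67 ± 0.23 in astrocytes and oligodendrocytes. S100a4 and Ccl2 had differences of -4.20 ± 0.17 (limma adjusted p = 2.36e-11) and -3.88 ± 0.49 (limma adjusted p = 6.16e-06). Sox2, a transcription factor of neural progenitors, was also above neurons in the microglial arrays, with a difference of -1.49 ± 0.27 (limma adjusted p = 0.000212), and these arrays held oligodendrocyte markers as given above. Ifitm3 and Igfbp7, an IGF-binding protein, were higher in neurons, by 2.01 ± 0.60 (limma adjusted p = 0.0113) and 1.41 ± 0.38 (limma adjusted p = 0.00613). Both averaged 12.42 in astrocytes, and the neuronal arrays held astrocyte markers as given above, whose part was not tested.

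Of the 35 neuronal and microglial genes 2 were higher in astrocytes than in oligodendrocytes (5.71%) and 9 in oligodendrocytes (25.7%), and 4 were higher in neurons (11.4%) and 6 in microglia (17.1%). Slc16a7 and Dtx4 were the 2 with an astrocyte excess, of 1.26 ± 0.26 (SE, limma adjusted p = 0.00128) and 1.11 ± 0.31 (limma adjusted p = 0.01). Rgs2 was higher in oligodendrocytes, with an astrocyte minus oligodendrocyte difference of -2.63 ± 0.31 (limma adjusted p = 9.34e-06), followed by Nell2, a secreted protein of neurons, at -2.29 ± 0.26 (limma adjusted p = 5.33e-06) and Shtn1 at -2.003 ± 0.18 (limma adjusted p = 5.02e-07). The others were Mef2c, Rnf144b, Rgs10, Reps2, B4galt6 and Atp6v1b2. Nell2 had the largest neuronal excess over microglia, 2.72 ± 0.26 (limma adjusted p = 2.86e-07), and was followed by Mef2c at 1.78 ± 0.35 (limma adjusted p = 0.000454), Fabp3 at 1.14 ± 0.29 (limma adjusted p = 0.00429) and Ncoa7 at 1.12 ± 0.13 (limma adjusted p = 3.4e-06). The 6 higher in microglia were Rnf144b, at -1.91 ± 0.41 (limma adjusted p = 0.00105), Rgs10, Filip1, Rhov, B4galt6 and Fam20c. Without the first oligodendrocyte array 6 genes in place of 10 both met the rule and differed between neurons and microglia. The size of the astrocyte to oligodendrocyte difference had a median of 0.65 over the macroglial genes and 0.63 over the others, against 0.35 over all genes, and the size of the neuron to microglia difference had medians of 0.49 and 0.50 against 0.53. The rule chose the shared genes by these same culture means, while all genes include those low in every culture. These sizes and the called shares within a side are therefore described beside all genes and were not tested against them.

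Lists of cell type markers and pathways placed 16 macroglial and 6 neuronal and microglial genes, in 14 of 34 lists that held 528 measured genes. The counts of list members higher or lower by the mean contrast below are to be set against 8.28% and 6.01% of all genes, and the shared genes among them entered those counts by their choice. Radial glia and progenitor genes were mostly higher, with 8 of 10 called, and Fabp7 and Sox2 were the shared members. Fabp7, the fatty acid carrier of radial glia, averaged 12.68 ± 0.57 in astrocytes and 12.26 ± 0.39 in oligodendrocytes, against 10.91 ± 1.28 in neurons and 10.33 ± 0.61 in microglia. Of 15 genes of the Hippo pathway and YAP targets 9 were higher and none lower, and Amotl2 and Tead1 were shared. Their median difference was 1.45 against 0.0046 over all genes. This list too stood out in astrocytes, at 8.70 against 6.35, 6.08 and 6.04 in oligodendrocytes, neurons and microglia. The YAP target Ccn1 was higher by the mean contrast at 2.18 ± 0.36 (limma adjusted p = 0.000203) with astrocytes at 8.26 ± 1.55, oligodendrocytes at 4.04 ± 0.41, neurons at 4.10 ± 0.049 and microglia at 3.85 ± 0.091. Of 12 SOX and NFI factors 7 were higher, with Sox2 and Sox21 shared, and of 20 genes of BMP and TGF-beta signalling 8 were higher, with Bmpr1a shared. Among 29 basement membrane and matrix genes 16 were higher, with Col11a1 and Lamc1, the gamma-1 chain of laminins, shared. Of 20 integrin and focal adhesion genes 12 were higher and none was shared. For Itgb1, the common beta chain of many integrins, the microglia, at 10.48 ± 0.22, stood with astrocytes at 10.91 ± 0.37 and oligodendrocytes at 10.48 ± 0.085.

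Cell division genes had the same form. Of 19 measured 10 were higher and none was shared. Top2a, which untangles replicated DNA, averaged 9.13 ± 0.44 in astrocytes, 8.999 ± 0.23 in oligodendrocytes and 9.13 ± 0.16 in microglia against 4.67 ± 0.23 in neurons. Other function lists gave few shared genes. Of 21 amino acid genes 4 were higher and 1 lower (Phgdh and Psat1 shared). Of 15 FGF genes 4 were higher and 2 lower (Fgfr2 and Fgfr3). Of 17 cadherin and junction genes 5 were higher and 1 lower (Pard3). Of 13 IGF genes 3 were higher and 1 lower (Igfbp7). The gap of Pard3 fell from 1.10 to 0.13 with the median of all its probe sets, which ends its place among the shared genes. Notch genes were higher for 7 of 16, Wnt genes for 8 of 19, proteoglycans for 8 of 17, D cyclins and inhibitors for 4 of 11, EGF receptor genes for 3 of 11, PDGF genes for 2 of 6, connexins for 2 of 9 and lipid synthesis for 2 of 20, with no shared member. Among the markers 8 of 15 astrocyte (Fgfr3 shared), 8 of 13 oligodendrocyte, 6 of 9 precursor, 5 of 12 fibroblast, 4 of 10 pericyte and 2 of 6 ependymal genes were higher, and by limma 0 of 9 endothelial genes were called, 3 having an unadjusted p under 0.05.

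In the other direction 12 of 16 neuronal and 3 of 16 microglial markers were lower in macroglia and none was shared. A list of signalling genes known from blood cells and neurons had 14 of 30 members lower and 1 higher, with a median of -0.97, and Rgs2 and Rgs10 were shared. Prkcb, a protein kinase C isoform, was lower by the mean contrast at -1.93 ± 0.28 (limma adjusted p = 5.28e-05), at 10.70 ± 0.54 in neurons and 9.59 ± 0.45 in microglia but also at 10.16 ± 0.36 in oligodendrocytes and 6.27 ± 0.93 in astrocytes. Of 23 potassium channel genes 10 were lower and none was shared. Of 28 exocytosis and SNARE genes 9 were lower and 3 higher, with Stx7 the shared member, and Stx1a showed a neuronal pattern, at 9.88 ± 0.59 in neurons and 4.89 ± 0.25 in microglia. Of 35 axon guidance genes 9 were higher and 8 lower, and the shared members stood on both sides, with Plxnb1 and Ephb1 in macroglia and Plxna1 and Plxnc1 in neurons and microglia. Glycolysis had 2 of 19 higher and 2 lower, and retinoid and fatty acid binding 3 of 17 higher and 2 lower.

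Some gene families, put together by symbol after their values were seen, had members on opposite sides. Fabp7 and Fabp3 were shared by macroglia and by neurons with microglia, and of 10 measured fatty acid binding proteins Fabp4 alone was also called, in the direction of Fabp3, with 7.89 ± 1.43 in microglia and 3.49 ± 0.17 in neurons. Of 8 plexins, receptors of semaphorins, Plxnb1 was higher in macroglia, at 8.26 ± 0.40 in astrocytes and 7.17 ± 0.49 in oligodendrocytes against 5.63 ± 0.60 in neurons and 5.63 ± 0.59 in microglia, and its gap became 0.94 with the median of all its probe sets. Plxna1 had the opposite order, at 8.70 ± 0.77 in neurons, 8.90 ± 0.13 in microglia, 7.51 ± 0.70 in astrocytes and 7.07 ± 0.11 in oligodendrocytes, although its gap of 1.20 became -0.13 with the median of all its probe sets. Of 15 S100 genes 9 were higher and none lower, and astrocytes had the highest mean for each of the 6 higher ones that were not shared, such as S100a11 at 12.79 ± 0.22 against 7.68 ± 1.80 in oligodendrocytes. Of 17 RGS genes 7 were lower and 2 higher, and the 5 lower ones outside the shared pair were high in neurons or in microglia but not in both, such as Rgs4 in neurons at 10.56 ± 0.12 and Rgs18 in microglia at 10.37 ± 0.61. Of 23 subunits of the vesicular proton pump 6 were lower and 1 higher, and of 11 septins 5 were higher and 2 lower, with Septin4 shared.

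**Figure D3:**
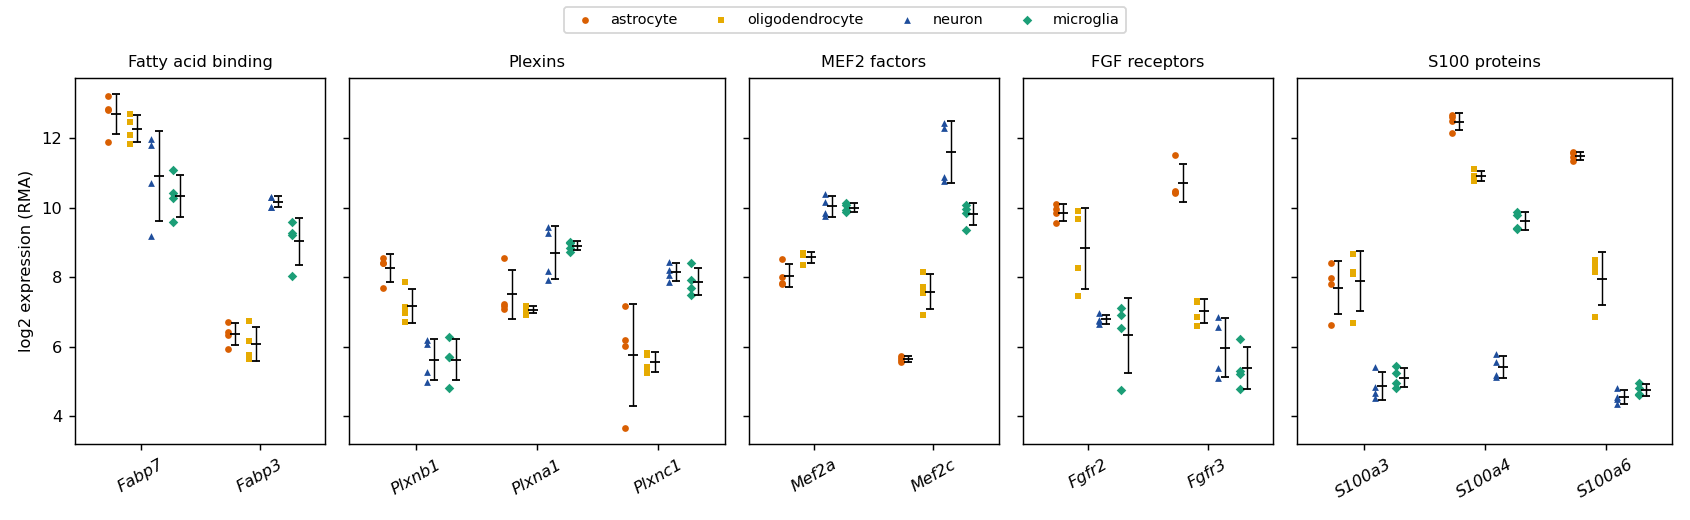
Members of 5 gene families, with 1 point per array, bars for the mean ± SD of 4 arrays and log2 expression on the vertical axis. Fabp7 and Plxnb1 have higher means in astrocytes and oligodendrocytes, and Fabp3, Plxnc1, Plxna1, Mef2a and Mef2c in neurons and microglia. Microglia lie nearer to oligodendrocytes than to neurons for S100a4, and near neurons for S100a6.

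Chemokines and interferon-related genes, families also put together after their values were seen, held several shared members. Over all genes 0.767% were shared by macroglia, and 8.28% were higher and 6.01% lower by the mean contrast. The shared members entered the counts below by their choice. Of 27 CC and CXC chemokines 7 were higher and 1 lower, and Ccl2, Ccl7, Cxcl1, Cxcl6 and Cxcl10 were shared. Of 30 genes with Ifit, Ifitm, Ifi, Isg, Irf or Gbp symbols or Rsad2, 16 were higher and 1 lower, and Gbp2, Ifi27l2b, Ifi44l, Ifitm10, Ifitm3, Irf7, Isg15 and Rsad2 were shared. These genes varied between arrays of a culture. Irf7, a transcription factor of the interferon response, measured 5.47, 6.55, 5.45 and 10.19 in microglia, 7.37, 9.26, 9.32 and 6.42 in astrocytes, 7.98, 9.31, 10.29 and 9.03 in oligodendrocytes and 4.92, 4.07, 4.95 and 4.98 in neurons. The fourth microglial array of Irf7 thus lay within the macroglial range while the other 3 lay near or below its lower end. Rsad2, an antiviral enzyme induced by interferon, measured 6.67, 8.90, 8.54 and 4.61 in astrocytes, 6.62, 7.79, 9.63 and 7.52 in oligodendrocytes, 5.03, 5.03, 5.78 and 5.93 in neurons and 5.65, 6.03, 5.57 and 7.18 in microglia, and its sides overlapped. Without the fourth microglial array 98 of the 109 macroglial genes and all 35 of the others met the rule.

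Of the 144 shared genes 11 neighbouring pairs among the 109 on the macroglial side lay within 1 Mb on GRCr8, and none among the 35 on the other. Besides the S100 genes, Ccl2 with Ccl7 and Myo1d with Tmem98, these were Lcat with Slc12a4 at 0.204 kb, Cxcl1 with Cxcl6 at 115.638 kb, Ifitm3 with Irf7 at 255.198 kb, Ephb1 with Amotl2 at 358.301 kb, Zfand4 with Rassf4 at 498.042 kb, Ifi27l2b with Serpina3n at 723.248 kb and Amotl2 with Tmem108 at 746.893 kb. A longer list holds more such pairs by its length alone, and no count was made over all genes. Nothing is therefore read from the number of pairs on either side. Lcat, which esterifies cholesterol, and Slc12a4, a potassium-chloride cotransporter, are so close that signal from the end of one can reach probes of the other, which was not tested. Other probe sets existed for 41 macroglial and 18 neuronal and microglial genes. All pointed the same way for 32 and 16, while at least 1 also met the gap for 19 and 13. Some genes had other probe sets of both kinds, such as Dtx4 with gaps of -0.045 and 1.22.

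The mixtures put the 2 lists into samples of known RNA content. The neuronal share of the RNA was 0.25 in NA1, 0.5 in NA2 and 0.75 in NA3, and astrocyte RNA made up the remainder. Each mixture had 2 replicates, made from RNA of cultures that were also hybridised alone, so they are no independent RNA. NAO had the neuronal share of NA2 with 0.25 each of astrocyte and oligodendrocyte RNA, and NAOM held microglial RNA as well. Over all genes the slope on the neuronal fraction was called falling for 1093 (7.69%) and rising for 1561 (11%) by limma at an adjusted p under 0.05, with a median of -0.016. Of the 109 macroglial genes 39 were called falling (35.8%), the slope was negative for all 109, and its median was -2.50 per unit of neuronal fraction. With the replicate as a block, since each replicate shares its parent cultures, 95 were called falling against 2440 of all genes (17.2%), and 92 were called without the first replicate and 104 without the second. Of the 35 neuronal and microglial genes 27 were called rising (77.1%), the slope was positive for all 35, and its median was 1.72. These signs follow from the neurons and astrocytes of the gap rule, and they add no independent support.

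Single genes followed the mixing. S100a6 measured 11.04 and 11.05 in NA1, 10.54 and 10.31 in NA2, 9.45 and 9.26 in NA3, 9.71 and 9.69 in NAO and 9.28 and 9.11 in NAOM, with a slope of -3.38 ± 0.32 (SE, limma adjusted p = 0.00404). Mef2c measured 10.45 and 10.63 in NA1, 11.41 and 11.68 in NA2, 11.66 and 11.94 in NA3, 11.28 and 11.44 in NAO and 11.36 and 11.49 in NAOM, with a slope of 2.51 ± 0.45 (limma adjusted p = 0.0153). S100a6 fell and Mef2c rose at each step of the neuronal fraction in both replicates. The step from NA2 to NAO exchanges one macroglial RNA for the other, and 205 of all genes were higher (1.44%) and 34 lower (0.239%) in NAO. Of the macroglial genes 0 were called higher, and S100a6 alone was called lower, with a NAO minus NA2 difference of -0.73 ± 0.12 (limma adjusted p = 0.0419). With the replicate block 5 were higher and 14 lower, against 388 (2.73%) and 345 (2.43%) of all genes. Of the neuronal and microglial genes 0 were called in either direction by limma, and 0 were higher and 1 lower at an unadjusted p under 0.05, where 5 macroglial genes were higher and 5 lower. Relative to NA2 of the same replicate, the median over the macroglial genes was 0.51 and 0.54 in NA1, -0.77 and -0.64 in NA3, -0.13 and -0.14 in NAO and -0.32 and -0.36 in NAOM. The median over the neuronal and microglial genes was -0.52 and -0.59 in NA1, 0.35 and 0.34 in NA3, 0.02 and -0.08 in NAO and 0.18 and 0.05 in NAOM. The size of the NAO minus NA2 difference had a median of 0.43 over the macroglial genes, 0.092 over the others and 0.13 over all genes. Single macroglial genes differed in both directions, such as Irf7 by 1.60 and Heg1 by -0.97, neither of them called.

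**Figure D4:**
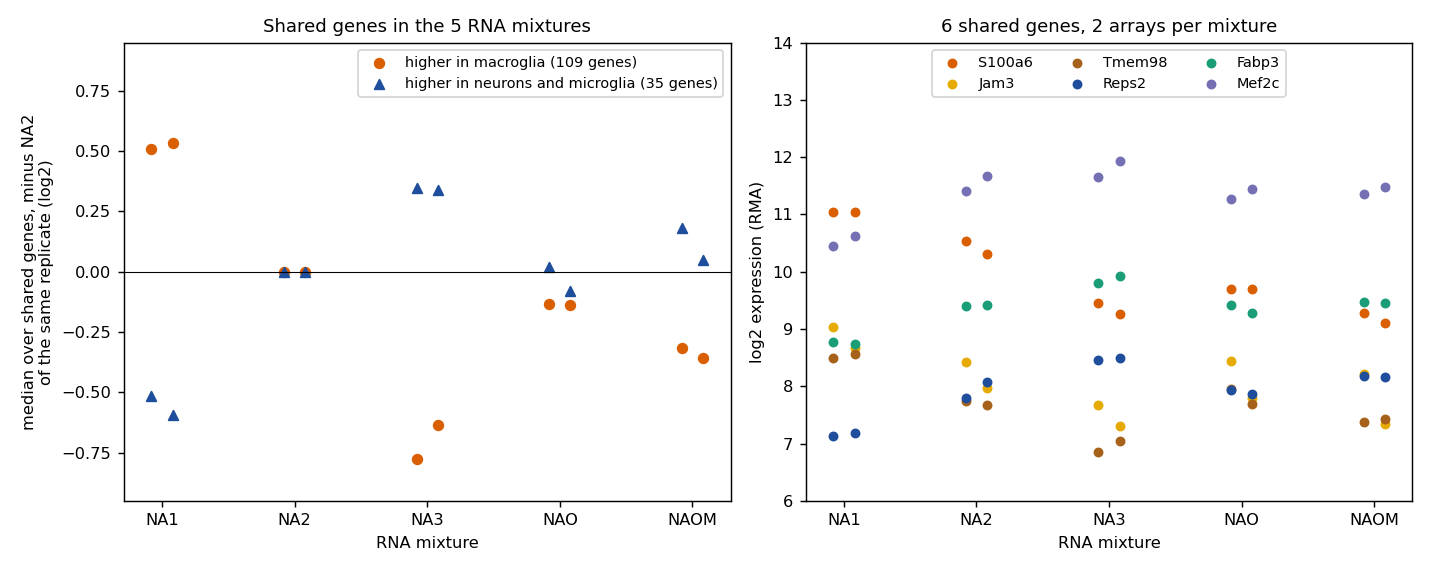
Left, the median over the shared genes of each side in every mixture minus NA2 of the same replicate (log2 units); right, log2 expression of 6 shared genes in the 2 arrays of each mixture. The medians of the macroglial genes fall and those of the neuronal and microglial genes rise from NA1 to NA3. The medians in NAO lie near NA2 for both sets, though single macroglial genes differ in both directions.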

How the data were processed

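RNA of 16 primary cultures and 10 RNA mixtures was hybridised to Affymetrix rat arrays, 1 array per sample. The authors deposited log2 expression values per probe set, made with RMA and the affy package per the submitters' processing notes, whose versions are not given in the sources used here. RMA subtracts background and quantile-normalises all arrays together, so a general shift of a culture's RNA is removed and low values are compressed. Of 31099 probe sets 57 controls were left out and 31042 were tested, of which 20826 had 1 gene symbol, 436 several and 9780 none. Of these, 20758 were matched to RefSeq by gene ID, and each of 14217 genes was read from the brightest of its probe sets, by the average of all 26 arrays. Mean contrasts were fitted with lmFit and eBayes of limma 3.58.1 in R 4.3.3, with 1 mean for each of 4 cultures, and adjusted by Benjamini-Hochberg over all probe sets tested. A call needed an adjusted p under 0.05 and, between cultures, a log2 difference of at least 1. Mixtures were fitted on their own 10 arrays. Values chosen by the gap rule are given without a test. The series design names the 4 arrays of a culture biological replicates, and p-values measure the spread between these samples. The 4 were not equally alike. The microglial list stood at 5.94 and 6.05 in astrocyte arrays 2 and 3, against 4.72 and 4.60 in the other astrocyte arrays. The astrocyte list stood at 7.59 and 8.35 in neuronal arrays 1 and 2, against 9.45 and 9.25 in the others. Whether such pairs share a preparation was not tested, and each SD and p-value treats the 4 as independent. No 2 arrays were copies, with 0 pairs sharing over 50% of their values. The number of arrays limits the precision. Same-numbered mixtures share parent cultures by their labels and deviated together, with r between 0.38 and 0.87 in all 20 pairs. Named genes were the 15 with the largest gap on each side, the 3 just inside and outside the minimum, list members, and the 5 with the largest difference within a side each way. Others named were chosen after their values were seen. The members and lists were chosen with earlier results of these data known. The scripts were tested on simulated data, and Python 3.11.15 with pandas 2.3.3, numpy 2.4.6 and matplotlib 3.10.9 was used. Alternatives changed the minimum, the scaling, the variance model, the probe set rule, the dim filter and the arrays included.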

Additional observations from a re-analysis of the deposited data

Results flagged for a closer look

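Among the 30 genes with the largest gaps, 6 of 120 groups of 4 arrays held an array far from the other 3, where chance gives about 1 in 20. Myo1d stood at 4.18 in the first neuronal array against 3.76 to 3.76 in the others. Plekhb1 stood at 7.89 in the fourth astrocyte array against 10.41 to 10.59, and Atp1b1 in the same array at 9.53 against 10.30 to 10.40. Cxcl1 stood at 6.58 in the first astrocyte array against 8.84 to 9.30. Rgs2 stood at 9.67 in the second oligodendrocyte array against 8.33 to 8.41, and Selenom at 7.74 in the fourth microglial array against 8.08 to 8.13.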

How the results depend on the processing

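With a minimum of 0.5 in place of 1, 3889 probe sets were higher and 3586 lower by the mean contrast, 297 and 129 genes were shared, and 103, 88, 42 and 57 shared genes differed within a side (astrocytes against oligodendrocytes and neurons against microglia for the macroglial genes, then the same for the others). With a minimum of 2 these were 380 and 358, 12 and 6, and 2, 1, 0 and 0. As 2 groups of 8 arrays, 619 probe sets were higher and 318 lower. With the median of all probe sets of a gene, the gap turned to -0.017 for Filip1 and -0.13 for Plxna1 and fell to 0.48 for Fgfr2, 0.94 for Plxnb1 and 0.13 for Pard3, while 94 and 33 genes were shared, 86 and 31 of them from the lists above. The replicate block changed little in the cultures, at 1804 and 1608 probe sets and 109 and 35 shared genes. Deviations of same-numbered arrays from their culture means correlated with r between -0.11 and 0.18, over 0.1 in 5 of 24 pairs. The numbers were therefore not taken to pair the cultures. In the mixtures, the replicate block gave 95 macroglial genes with a falling slope and 5 higher and 14 lower in NAO, and without either replicate 92 to 104 fell and 28 to 31 of the other genes rose. NAO against NA2 without a replicate has no residual degrees of freedom and was not run. Leaving out 1 culture array at a time gave 1721 to 1924 and 1563 to 1669 probe sets, 95 to 125 and 31 to 39 shared genes, and 20 to 39, 21 to 32, 8 to 13 and 6 to 13 genes that differed within a side, with the lowest of the last range without the first oligodendrocyte array. At least 92 of the 109 and 28 of the 35 genes stayed shared in each of these. Without the fourth astrocyte and the third oligodendrocyte array, left out together after the data were seen, 130 and 36 genes were shared, and 38, 36, 12 and 11 differed within a side. Quantile normalisation of the cultures alone gave 96 and 41 shared genes, array weights 102 and 36, and median centring 105 and 36. The named genes were also counted as combinations of 1 gene with 1 alternative. For the mean difference 26 combinations lost the call, 19 of these at the minimum of 2, and 2018 kept it. For the gap 3 combinations moved and 2 reversed. Levels below an array's median are compressed, so that the gaps of low genes are uncertain in size.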

Other observations

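Further macroglial genes known from glial biology were not among the largest gaps. Sall1, a zinc finger factor of microglia and of kidney development, measured 8.49, 8.36, 8.35 and 7.83 in astrocytes, 8.60, 8.54, 7.001 and 8.005 in oligodendrocytes, 5.29 to 5.85 in neurons and 7.31, 7.28, 7.06 and 5.19 in microglia. The third oligodendrocyte array of Sall1 lay within the microglial range, and the neuronal arrays lay below all macroglial ones. Hepacam, a glial adhesion protein, measured 9.52, 8.67, 8.81 and 7.78 in astrocytes, 8.60, 8.17, 7.18 and 7.16 in oligodendrocytes, 5.72, 5.94, 6.59 and 6.42 in neurons and 7.01, 6.35, 6.71 and 5.92 in microglia. Its sides did not overlap, with the first microglial array the nearest to the macroglia. Adgrg1, an adhesion receptor of progenitors and glia, measured 10.03, 9.61, 9.77 and 10.08 in astrocytes, 9.81, 9.90, 9.85 and 9.40 in oligodendrocytes, 7.78, 7.55, 8.63 and 8.56 in neurons and 8.77, 7.98, 7.88 and 7.14 in microglia, also without overlap. On the other side B4galt6, which makes lactosylceramide, measured 10.28, 9.94, 9.28 and 9.36 in neurons, 10.65, 10.68, 10.56 and 11.05 in microglia, 7.19, 6.89, 7.18 and 7.46 in astrocytes and 8.46, 8.84, 8.74 and 8.66 in oligodendrocytes, so that its 4 cultures formed a series without overlap. Hpcal1, a calcium sensor, measured 9.63, 9.42, 8.96 and 9.09 in neurons, 8.56, 8.52, 8.59 and 9.18 in microglia, 5.24, 6.14, 6.19 and 8.14 in astrocytes and 6.93, 7.31, 7.80 and 7.68 in oligodendrocytes, and the fourth astrocyte array stood above the other 3.

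The fourth astrocyte array stood apart in several shared genes. Gpr37l1, a receptor of astrocytes, measured 10.33, 9.75, 9.71 and 7.19 in the 4 astrocyte arrays, Ntrk2, the BDNF receptor, 11.61, 11.10, 10.95 and 8.02, and Abhd3, a phospholipase, 10.70, 9.71, 9.76 and 5.80. Col11a1, a collagen chain, measured 8.15, 7.23, 7.12 and 12.12 and Papss2, which makes the sulfate donor of proteoglycans, 5.79, 5.35, 5.19 and 9.69. The fibroblast marker list stood at 5.98, 6.12, 6.11, 7.71 in these arrays, and its part in the differences was not tested.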
